A study of Homo sapiens with 6 samples.

Results

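Beta-catenin, the TCF/LEF transcription factors that carry it to DNA and 4 of its target genes in the liver were followed in HepG2 cells after knockdown of KIF11, a mitotic kinesin. The genes were chosen by name, as the rows of the deposited count table for CTNNB1, LEF1, TCF7, TCF7L1, TCF7L2, GLUL, LGR5, TBX3 and SP5. All 9 were found among the 20030 genes of the table, and all 9 had enough counts to be tested. HepG2 is an established human hepatoma line, and 3 libraries of it carried a control short hairpin RNA (shRNA, group sh-ctrl) while 3 carried a hairpin that targets KIF11 (group sh-KIF11). The cell trims such a hairpin to a short guide strand, through which the matching mRNA is cut. Both hairpins were delivered by lentivirus, and the study's methods add puromycin selection, so the sh-ctrl cells were infected cells too. The study's oligomer list names 1 hairpin against KIF11, and neither the labels nor the methods say whether the replicates were separate cultures, so p-values measure the spread between these libraries, which may be technical. The labels and methods give no time between infection and harvest.

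In canonical WNT signalling, beta-catenin is held low by a destruction complex built on AXIN and APC, in which casein kinase and GSK3 phosphorylate it so that a ubiquitin ligase marks it for the proteasome. When a WNT ligand stops the complex, beta-catenin enters the nucleus, binds a TCF/LEF factor and turns repression of the target genes into activation. In the liver this signal is strongest around the central vein, where it maintains glutamine synthetase and other pericentral genes, and hepatocytes near the portal vein express a different set. HepG2 is known to carry, on 1 allele, a deletion in CTNNB1 that removes the phosphorylation sites read by the destruction complex, so beta-catenin is active in this line without added WNT. The counts are per gene and do not separate the alleles, and mRNA says nothing of beta-catenin protein, which is set mostly by degradation.

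The TCF/LEF factors bind a short core in DNA, and 4 cores, the letters CTTTG followed by AA, AT, TA or TT, were searched on both strands of the 250 bases before each RefSeq gene start (GRCh38.p14). The table of start windows held 35116 windows, of which 4199 contained at least 1 match and 43 (0.122%) at least 3. Of the 9 genes, 7 had a window, 11 windows in all. LGR5 and TBX3 had none and were not searched. The window of SP5, a gene known as a direct beta-catenin target, held 3 matches, and it is shown because SP5 was one of the changed genes. It lies at chr2:170715087-170715336 on the plus strand and overlaps no exon of GENCODE release 29. The capitals mark the cores, CTTTGAT on the plus strand 103 to 109 bases before the start and CTTTGAA on the minus strand 142 to 148 and 78 to 84 bases before it.
SP5: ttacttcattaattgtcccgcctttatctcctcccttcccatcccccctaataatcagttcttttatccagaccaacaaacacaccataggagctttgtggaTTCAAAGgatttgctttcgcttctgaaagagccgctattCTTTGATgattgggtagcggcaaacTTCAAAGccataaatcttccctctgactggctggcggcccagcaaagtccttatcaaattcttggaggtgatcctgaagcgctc
The only other matches lay at alternative starts of TCF7 and TCF7L2, 1 in each, and none of the cores lay in the windows of GLUL, CTNNB1, LEF1 or TCF7L1. The sites of both factors are given with 10 bases on each side, TCF7 from the window chr5:134123368-134123617 and TCF7L2 from chr10:113126383-113126632, both on the plus strand.
TCF7: gccccactggAACAAAGgaggagagag
TCF7L2: aaatatcaggCTTTGTTcttttgattg
A match of letters is a description of the window and not a measured binding site.

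The libraries held 18167773 to 19583282 counts each. Counts were scaled with edgeR's TMM factors, 0.922 to 0.926 for sh-ctrl and 1.08 to 1.09 for sh-KIF11, and are given as CPM, that is, relative to the scaled size of the library. KIF11 itself measured 111, 116 and 121 CPM with the control hairpin against 72.2, 71.4 and 62.9 CPM with its own, a log2 fold change of -0.75 ± 0.0573 (standard error, adjusted p = 4.22e-15 in edgeR's quasi-likelihood test, used for every adjusted p below, with Benjamini-Hochberg adjustment over the 12369 tested genes). All 8 markers of the hepatoma line were detected and 7 were lower in sh-KIF11, where 34.7% of all tested genes were called lower. No test compared the markers with all genes. Their summed level was 21896 to 22757 CPM in sh-ctrl and 11440 to 12542 CPM in sh-KIF11. The 8 markers of blood, endothelial, stromal and squamous cells summed to 80.7 to 91.1 CPM in sh-ctrl and 46.3 to 51.3 CPM in sh-KIF11, nearly all of it CD68, and the defining markers KRT5 and DCN had 0 counts in all 6 libraries while PTPRC had at most 1. The endothelial marker PECAM1 had 26 to 35 counts in sh-ctrl and 23 to 44 in sh-KIF11, and VWF rose from 21 to 34 counts in sh-ctrl to 54 to 75 in sh-KIF11 (log2 fold change 1.01, adjusted p = 0.000342). The part of the lower hepatoma markers in the results below was not tested. In bulk RNA, fewer cells of a type and less RNA per cell cannot be told apart.

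All 4 liver target genes changed in sh-KIF11, but in opposite directions. GLUL and SP5 fell, TBX3 and LGR5 rose, and no pair of groups overlapped. Of all tested genes 69.1% passed an adjusted p of 0.05, 34.4% higher and 34.7% lower, and the groups did not overlap for 71.2%. Against that background, 6 of the 9 genes passed (66.7%), 3 higher and 3 lower, and the groups did not overlap for 7 of them (77.8%). Both shares lie near those of all tested genes, so the counts alone do not set these genes apart. The plot of the 9 genes by library shows every value.

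**Figure D1:**
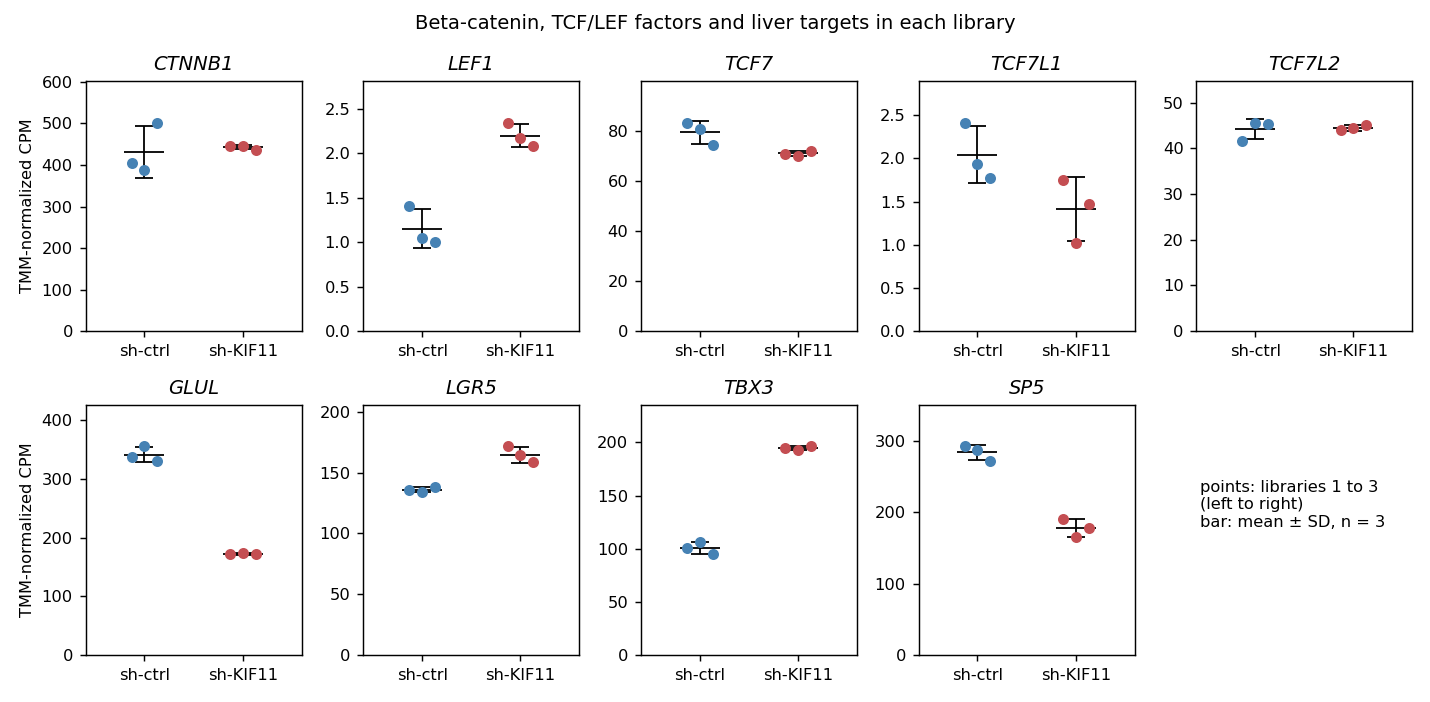
TMM-normalized CPM (linear axis from 0) of the 9 genes in each of the 3 sh-ctrl (blue) and 3 sh-KIF11 (red) libraries, with the mean and SD. GLUL and SP5 sit lower and TBX3 and LGR5 higher in every sh-KIF11 library, whereas the CTNNB1 and TCF7L2 groups overlap.

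GLUL, which encodes glutamine synthetase, the enzyme that makes glutamine from glutamate and ammonia and the classic pericentral marker, fell most of the 9 genes. It measured 338, 356 and 330 CPM with the control hairpin, against 171, 174 and 171 CPM after knockdown. The 3 sh-KIF11 libraries lay close together and far below all 3 sh-ctrl libraries. The mean went down from 341 ± 12.9 to 172 ± 1.36 CPM (SD, n = 3 per group), for a log2 fold change of -0.99 ± 0.0489 (standard error, adjusted p = 3.16e-21). GLUL lies at chr1:182381704-182392206 on the minus strand (GRCh38, GENCODE release 29). It has 4 processed pseudogenes there, 0 of which are in the count table, so how reads shared with them were counted is uncertain.

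SP5, a zinc finger repressor that is switched on by beta-catenin and acts back on the same target genes, fell with GLUL. The control libraries measured 292, 288 and 272 CPM, against 190, 166 and 177 CPM after knockdown. The highest sh-KIF11 library was thus well under the lowest sh-ctrl library. The mean went down from 284 ± 10.3 to 178 ± 12.2 CPM (SD, n = 3 per group), for a log2 fold change of -0.68 ± 0.0518 (standard error, adjusted p = 4.69e-15). The gene lies at chr2:170715351-170718078 on the plus strand, just after the window with 3 cores printed above.

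TBX3, a T-box transcription factor known as a beta-catenin target in liver tumours, moved the other way. It measured 101, 106 and 95.2 CPM with the control hairpin, against 195, 193 and 196 CPM after knockdown. The groups were separated by a wide gap, and the sh-KIF11 libraries were nearly equal. The mean rose from 101 ± 5.62 to 195 ± 1.64 CPM (SD, n = 3 each), 1.93 times the sh-ctrl level, a log2 fold change of 0.95 ± 0.0517 (standard error, adjusted p = 8.04e-20). TBX3 lies at chr12:114670254-114684164 on the minus strand.

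LGR5, the R-spondin receptor that marks stem cells in many epithelia and pericentral hepatocytes in the liver, rose by less. Control libraries measured 136, 134 and 138 CPM, against 172, 164 and 158 CPM after knockdown. All sh-KIF11 libraries were higher, by a smaller gap than for TBX3. The mean rose from 136 ± 2.30 to 165 ± 6.59 CPM (SD, n = 3 per group), for a log2 fold change of 0.28 ± 0.0503 (standard error, adjusted p = 6.50e-06). LGR5 lies at chr12:71439770-71586310 on the plus strand and its exons overlap those of 1 antisense RNA gene.

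Ratios between the targets within a library do not depend on scaling. The ratio of GLUL to TBX3 counts, on the log2 scale, was 1.75, 1.74 and 1.79 with the control hairpin, against -0.19, -0.15 and -0.20 after knockdown. GLUL thus had more counts than TBX3 in every sh-ctrl library and fewer in every sh-KIF11 library, a shift of -1.94. The ratio of TBX3 to SP5 shifted by 1.63 in the opposite sense and that of LGR5 to SP5 by 0.95. The members that moved in the same direction also differed in size, with a shift of -0.68 for LGR5 to TBX3 and of -0.31 for GLUL to SP5. For all 6 pairs the groups did not overlap (two-sided exact permutation test, p = 0.1 and adjusted p = 0.1 over the 6 pairs, the smallest that 3 libraries against 3 allow). For pairs that moved in opposite directions this follows from the separation of the single genes above. The pairs also share genes, so they are not independent.

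CTNNB1, the gene of beta-catenin itself, showed no detectable change. Its mRNA measured 404, 388 and 502 CPM with the control hairpin, against 445, 445 and 437 CPM after knockdown. The third sh-ctrl library was above, and the other two below, all 3 sh-KIF11 libraries, so the groups overlapped. The means were 431 ± 61.5 and 442 ± 4.70 CPM (SD, n = 3 per group), for a log2 fold change of 0.04 with a 95% interval from -0.08 to 0.16 (adjusted p = 0.595). This value rests on 1 library and on the scaling, since leaving out sh-ctrl library 3 gave 0.16 with an adjusted p of 0.000402, and library totals alone gave 0.27 with an adjusted p of 7.76e-05. CTNNB1 lies at chr3:41194741-41260096 on the plus strand. The tested genes with the most similar profile, by the root mean square difference of log2 CPM centred on the sh-ctrl mean over the 6 libraries, were WDR70 (0.0223), BMPR1A (0.0274) and MFAP3 (0.0320), out of 9392 genes with at least 10 CPM. For GLUL they were ACADS (0.00629), APOC2 (0.0221) and DNAJA3 (0.0260).

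Among the TCF/LEF factors the least abundant, LEF1, rose, TCF7 fell slightly, and TCF7L1 and TCF7L2 did not pass the test. For LEF1, the lymphoid member of the family and itself a known beta-catenin target, 25, 19 and 17 reads were counted with the control hairpin against 47, 45 and 41 after knockdown. All 3 sh-KIF11 libraries were higher, on few counts. In CPM these were 1.40, 1.05 and 1.01 against 2.34, 2.17 and 2.08, so that the mean after knockdown was 1.91 times the control mean, with a log2 fold change of 0.92 ± 0.272 (standard error, adjusted p = 0.00278). LEF1 lies at chr4:108047545-108168956 on the minus strand, and an exon overlaps LEF1-AS1 on the other strand.

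TCF7, the factor first described in T cells, measured 83.2, 80.9 and 74.4 CPM with the control hairpin, against 70.8, 70.0 and 72.0 CPM after knockdown. The groups did not overlap, but the third sh-ctrl library came near them. Its log2 fold change of -0.16 ± 0.0571 (standard error, adjusted p = 0.0105) passed, lost the call with upper-quartile factors (-0.09) or without sh-ctrl library 1 (-0.13) or 2 (-0.15), and turned positive both when library totals alone were used (0.07) and in limma fits of the authors' FPKM (0.01 with a pseudocount of 1 and 0.02 with 0.1). TCF7 lies at chr5:134114711-134151865 on the plus strand and shares exonic sequence with SKP1 on the other strand. SKP1, a subunit of the ubiquitin ligase that marks beta-catenin, had 2742 to 3155 counts in sh-ctrl and 3147 to 3570 in sh-KIF11, and the strand setting of the counting is not given in the sources used here.

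TCF7L2, the main TCF factor of the adult intestine and liver, did not differ detectably, with 41.7, 45.6 and 45.3 CPM in the controls and 44.0, 44.3 and 45.2 CPM after knockdown. The groups overlapped, and the log2 fold change was 0.01 with a 95% interval from -0.13 to 0.15 (adjusted p = 0.907). With library totals alone it was 0.24 with an adjusted p of 0.00179. TCF7L2 lies at chr10:112950250-113167678 on the plus strand, where its exons overlap 1 antisense RNA gene. TCF7L1, the member that acts mostly as a repressor, rested on only 43, 35 and 30 reads with the control hairpin against 35, 21 and 29 after knockdown. Scaled to 2.04 ± 0.329 and 1.41 ± 0.369 CPM (SD, n = 3 each), the sh-KIF11 libraries were lower without overlap, and the log2 fold change was -0.54 with a 95% interval from -1.09 to 0.01 (adjusted p = 0.0761). Without sh-KIF11 library 1 it passed, at -0.72 (adjusted p = 0.0445). TCF7L1 lies at chr2:85133410-85310388 on the plus strand.

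**Figure D2:**
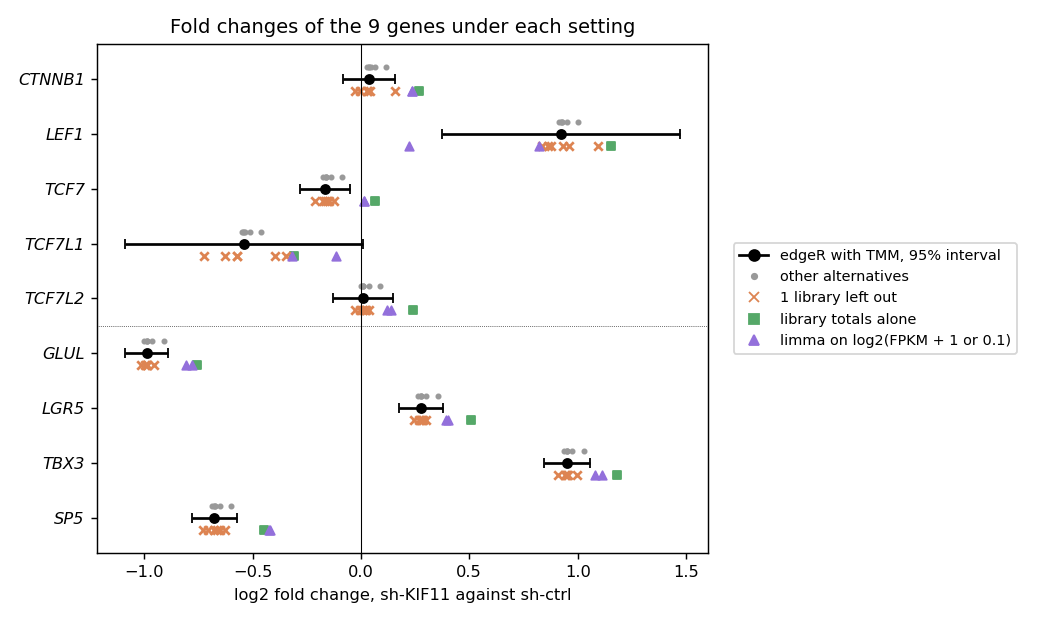
Log2 fold change (sh-KIF11 against sh-ctrl) of the 9 genes with its 95% interval in edgeR (black), and the value under each alternative setting. GLUL, SP5, TBX3, LGR5 and LEF1 keep their sign under every setting drawn, whereas CTNNB1, TCF7 and TCF7L2 lie on both sides of 0. TCF7L1 also stays below 0 (-0.72 to -0.12 over the alternatives), but its 95% interval reaches 0.01.

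The plot of fold changes by setting shows how far scaling matters for small changes. Library totals alone put the median of all tested genes at 0.24, against 0.00 with TMM, and limma on log2(FPKM + 1) and log2(FPKM + 0.1) at 0.12 and 0.17. With TMM 49.8% of the called genes were higher, with library totals alone 73.6%, and with limma 68.5% and 68.6%. A fold change near 0 here means a change like that of the median gene. For the 4 targets the range over all 15 alternatives was -1.01 to -0.76 for GLUL, -0.73 to -0.42 for SP5, 0.91 to 1.18 for TBX3 and 0.24 to 0.51 for LGR5, and all of these passed.

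Levels of different genes can be set side by side only per length, and their order differed between the scales used. In the authors' FPKM, CTNNB1 (83.2 ± 10.6 FPKM) and SP5 (81.6 ± 1.90) were highest in sh-ctrl and did not differ beyond their spread, followed by GLUL (33.7 ± 1.32) and LGR5 (33.1 ± 0.235), which did not differ beyond theirs either (SD, n = 3 each). TBX3 (18.7 ± 1.02), TCF7L2 (5.61 ± 0.234), TCF7 (3.01 ± 0.122), TCF7L1 (0.498 ± 0.0982) and LEF1 (0.160 ± 0.0568) came next, each apart from its neighbours. In sh-KIF11 the order of the targets in FPKM was SP5 (60.9 ± 4.06 FPKM), LGR5 (43.7 ± 1.10), TBX3 (40.6 ± 0.523) and GLUL (19.2 ± 0.317), with GLUL under TBX3 where in sh-ctrl it was above. TCF7L1 (0.382 ± 0.0969) and LEF1 (0.353 ± 0.0378) no longer differed beyond their spread. The FPKM and counts imply a length for CTNNB1 of 0.408 times its merged exons in GENCODE release 29, and for SP5 of 1.55 times. For SP5 that is longer than all its annotated exons, and why was not tested. On the scale of CPM per kilobase of merged exons, chosen after seeing the data, SP5 (mean 138) stood well above GLUL (37.8 ± 1.43) and CTNNB1 (36.2 ± 5.16) in sh-ctrl, and the latter pair did not differ beyond their spread (SD, n = 3 per group). On that scale too GLUL (19.1 ± 0.151) was under LGR5 (31.4 ± 1.25) and TBX3 (32.7 ± 0.276) in sh-KIF11.

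Together the TCF/LEF factors had 9.28 ± 0.0169 FPKM in sh-ctrl and 9.96 ± 0.249 FPKM in sh-KIF11 (SD, n = 3 each). Per kilobase of merged exons their sum was 15.1 ± 0.383 CPM in sh-ctrl and 14.4 ± 0.206 CPM in sh-KIF11, under the 36.2 and 37.1 CPM of CTNNB1 on that scale. The TMM factors were not applied to the authors' FPKM, so these sums differ in scaling too. Why they moved in opposite directions was not tested. Of the FPKM sum TCF7L2 held 60.5% ± 2.63 in sh-ctrl and 62.1% ± 1.37 in sh-KIF11, and TCF7 held 32.4% ± 1.26 and 30.5% ± 0.703. LEF1 went from 1.72% ± 0.609 to 3.55% ± 0.466 and was the only factor whose shares did not overlap (two-sided exact permutation test, p = 0.1, which is the minimum here, and 0.267 after Benjamini-Hochberg adjustment over the 4 shares). TCF7L1 went from 5.37% ± 1.05 to 3.82% ± 0.906, with overlap. The weight of TCF7 differed between the authors' FPKM and the counts. Its counts and FPKM imply a length of 24656 bases, against 10063 bases of merged exons in GENCODE release 29. That is longer than all its annotated exons, and why was not tested. Counts per kilobase of merged exons, a scale chosen after seeing the data, gave TCF7 52.2% ± 1.97 in sh-ctrl and 49.0% ± 0.109 in sh-KIF11, which do not overlap. On that scale TCF7 and not TCF7L2 was the most abundant factor, while LEF1 again rose, from 1.42% ± 0.253 to 2.85% ± 0.189.

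**Figure D3:**
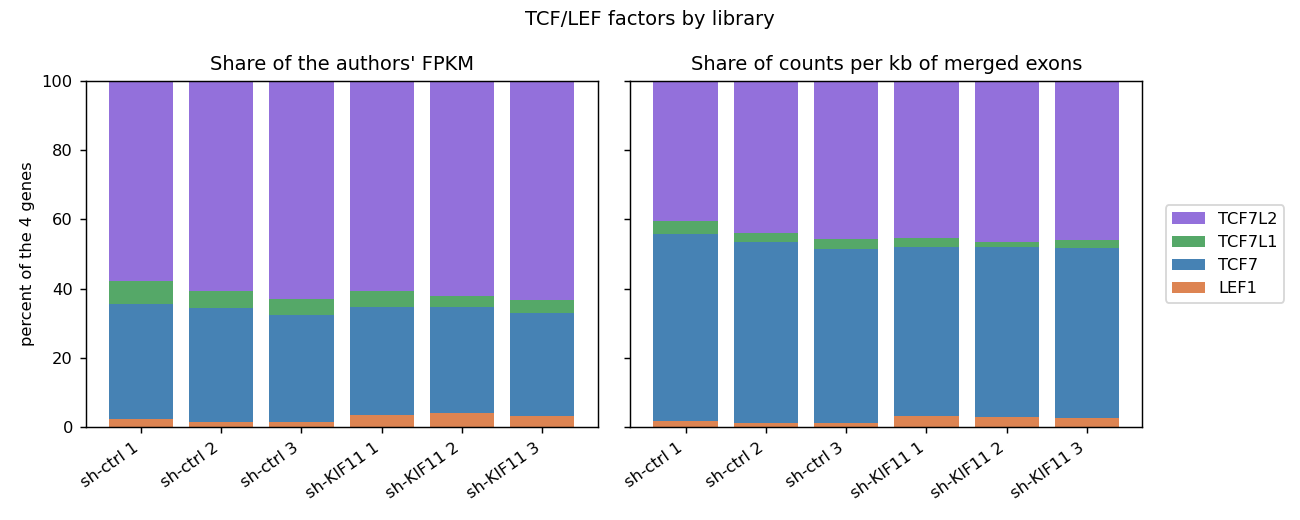
Share of LEF1, TCF7, TCF7L1 and TCF7L2 in their sum, in percent, for each library, from the authors' FPKM (left) and from counts per kilobase of merged exons (right). LEF1 is larger in every sh-KIF11 library on both scales, and whether TCF7 or TCF7L2 is the largest part differs between the scales.

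Around the 4 targets, other genes of the pericentral programme also moved in both directions. Of 15 listed, 11 were tested, 4 rose and 5 fell, with a median log2 fold change of -0.13 against 0.00 for all tested genes. Over all tested genes 34.4% rose and 34.7% fell, and no test compared the list with them. Of the 4 higher, 2 entered the test only through the sh-KIF11 libraries, as given below. With at least 10 counts required in every library, 2 were called higher. AXIN2, a scaffold of the destruction complex and the most widely used read-out of beta-catenin, rose from 171 ± 3.71 to 201 ± 0.484 CPM (log2 fold change 0.24, adjusted p = 4.45e-05). NKD1, another feedback inhibitor, went the other way, from 533 ± 17.9 to 488 ± 19.1 CPM (-0.13, adjusted p = 0.0171), a call that 9 alternatives lost and a value that became 0.10 under library totals alone, or 0.03 in limma for either FPKM scale. CYP2E1, a pericentral cytochrome P450, rose from 9, 5 and 8 counts to 53, 46 and 40 (log2 fold change 2.44, and 0.70 by limma on log2(FPKM + 1)). CYP2E1 and CYP1A2, 2 of the 4 higher genes, passed the low-count filter only through the sh-KIF11 libraries, so no p is given for them. CYP1A2, another of these P450 enzymes, named after its values were seen, went from 3, 3 and 1 reads to 18, 29 and 24, which is at least 6.86-fold higher when each sh-ctrl library is set to the floor of 3 counts. SLC13A3, a dicarboxylate transporter, and OAT, an enzyme of ornithine breakdown, fell by 0.86 and 0.72 on the log2 scale (adjusted p = 1.19e-15 and 4.58e-12).

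Of 13 genes of the periportal side, 8 were tested, 5 fell and 2 rose, with a median log2 fold change of -0.77. Over all tested genes 34.7% fell and 34.4% rose, and no test compared the list with them. HAL, which starts histidine breakdown, fell from 3.83 ± 0.469 to 0.990 ± 0.182 CPM (SD, n = 3 each, -1.94, adjusted p = 5.94e-09), and G6PC, the last enzyme of glucose release, fell by 1.36 (adjusted p = 4.71e-10). CPS1, the first enzyme of the urea cycle, rose from 47.0 ± 4.12 to 70.3 ± 0.279 CPM (0.58, adjusted p = 1.50e-10). GLS2, the liver glutaminase, rose by 0.23 (adjusted p = 0.0106) and lost the call without sh-KIF11 library 2 (0.20, adjusted p = 0.0648) or 3 (0.20, adjusted p = 0.0571). The markers of the hepatoma line given above, also hepatocyte genes in the main, had a median of -0.71, and their part in these falls was not tested.

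TCF targets described in other tissues were split as well, 4 higher and 5 lower among the 11 tested of 18 (median log2 fold change -0.15). These counts lie near the 34.4% higher and 34.7% lower of all tested genes. NRCAM, a neuronal adhesion molecule, rose from 7.54 ± 0.276 to 18.9 ± 1.22 CPM (1.33, adjusted p = 1.01e-14), and JUN, an AP-1 subunit, from 60.1 ± 4.01 to 116 ± 6.39 CPM (0.94, adjusted p = 4.92e-18). VEGFA, the vascular growth factor, fell from 120 ± 2.85 to 46.1 ± 3.70 CPM (-1.39, adjusted p = 1.73e-23), and BIRC5, which encodes the mitotic protein survivin, from 198 ± 10.4 to 99.3 ± 3.55 CPM (adjusted p = 2.31e-20). Many of these genes also answer to signals other than beta-catenin. The plot of all the lists shows the spread of each beside the middle range of all genes.

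**Figure D4:**
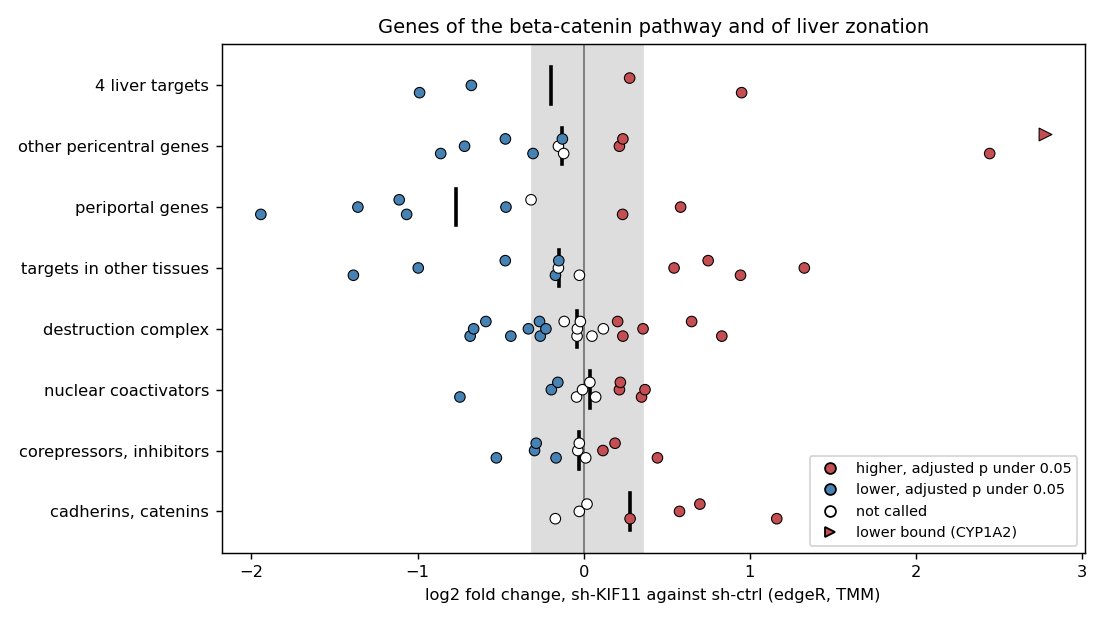
Log2 fold change (sh-KIF11 against sh-ctrl) of each tested gene of the lists (circles; red, higher and blue, lower at an adjusted p of 0.05; white, not called; arrowhead, lower bound), with the median of each list (black bar) and the median (grey line) and quartiles (grey band) of all tested genes. The liver targets, the other pericentral genes and the targets in other tissues lie on both sides of 0, and the 4 called of the 7 cadherin and catenin partners lie above it, where 34.4% of all tested genes were called higher. CYP2E1 (red circle) and CYP1A2 (arrowhead) passed the low-count filter only through the sh-KIF11 libraries, so their colour is not a test result. Both count in the median of the other pericentral genes.

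The destruction complex, its ubiquitin ligase and its regulators had 19 tested genes of 21, with 5 higher and 8 lower and a median log2 fold change of -0.04. The 13 called are near the 69.1% called among all tested genes. APC, the scaffold lost in most bowel tumours, rose from 29.2 ± 2.35 to 45.8 ± 3.71 CPM (0.65, adjusted p = 1.08e-09), and RNF146, a ubiquitin ligase that removes AXIN, from 19.9 ± 2.11 to 35.5 ± 2.04 CPM (0.83, adjusted p = 8.46e-12). AXIN1, the limiting scaffold, fell from 85.7 ± 7.50 to 54.2 ± 3.63 CPM (-0.66, adjusted p = 3.60e-12), and CSNK1A1, the kinase that primes beta-catenin for GSK3, from 122 ± 8.47 to 75.9 ± 3.91 CPM (-0.68, adjusted p = 4.69e-14). AXIN1 and AXIN2 thus moved apart. CSNK1E, also listed, had too few counts to be tested. Its mean was 0.548 ± 0.276 CPM with the control hairpin against 0.113 ± 0.155 CPM after knockdown, with overlap. The authors' FPKM gave it 12.1 ± 0.711 and, after knockdown, 16.7 ± 0.927 without overlap (SD, n = 3 each). For this gene counts and FPKM thus differed in level and in direction of the mean, and why was not tested. The balance of this list depended on scaling, with 10 higher and 4 lower by library totals alone and 8 higher and 4 lower by limma on either FPKM scale.

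The nuclear partners of beta-catenin moved in both directions. Of the coactivators, 11 of 12 were tested, 4 rose and 3 fell (69.1% of all tested genes were called), with a median of 0.04. CDC73, a subunit of the PAF1 complex, and BCL9L, which links beta-catenin to PYGO proteins, rose by 0.37 and 0.35 (adjusted p = 7.64e-05 and 2.35e-07). TBL1X, a corepressor exchange factor, fell from 102 ± 2.13 to 61.1 ± 3.42 CPM (-0.75, adjusted p = 3.05e-15), and KAT5, an acetyltransferase, by 0.19 (adjusted p = 0.0145), a call lost in 6 alternatives and a value of 0.04 with library totals alone. Without sh-ctrl library 1, only 1 coactivator was called lower. Of the corepressors and inhibitors, 10 of 13 were tested, 3 rose and 4 fell, with a median of -0.03. NLK, a kinase that loosens TCF factors from DNA, rose by 0.44 (adjusted p = 0.000124), and CTNNBIP1, which blocks the binding of beta-catenin to TCF factors, fell from 112 ± 5.85 to 77.8 ± 4.06 CPM (-0.53, adjusted p = 4.85e-11). CBY1, a beta-catenin antagonist, rose by 0.19 (adjusted p = 0.0342) and CTBP1, a corepressor, fell by 0.30 (adjusted p = 6.11e-06). The CBY1 call was lost in 6 alternatives, DESeq2 among them (adjusted p = 0.0609), and that of CTBP1 with library totals alone and with limma. Without sh-KIF11 library 1 or 3, only 1 gene of this list was called higher.

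At the membrane, where beta-catenin links cadherins to the actin skeleton, 7 of 9 listed genes were tested and 4 rose, where 34.4% of all tested genes rose; no test compared the list with them. CDH1 (E-cadherin) rose from 10.1 ± 0.593 to 22.5 ± 2.68 CPM (log2 fold change 1.16, adjusted p = 1.64e-13) and CDH2 (N-cadherin) from 102 ± 4.17 to 165 ± 1.13 CPM (0.70, adjusted p = 1.02e-15). The other two were JUP and VCL. By edgeR 0 genes of this list were called lower, with 0 at an unadjusted p under 0.05 and 0 by DESeq2 and limma. CTNNA1 and CTNND1, the alpha-catenin and p120-catenin partners, had log2 fold changes of -0.03 and 0.02 (adjusted p = 0.632 and 0.725).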

How the data were processed

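Poly(A) RNA of 6 HepG2 libraries was sequenced by the authors as 150 bp paired-end reads, and the submitters' processing notes list Trimmomatic, HISAT2 2.1.0, Cufflinks 2.2.1, HTSeq 0.9.1, DESeq and GRCh38, without roles. The authors deposited raw counts per gene and, for the same genes, FPKM values scaled to transcript length and library size. Strand setting and annotation of the counting are not given in the sources used here. Groups and replicate numbers came from the sample titles; the columns named shRNA were assigned to sh-KIF11, since no further shRNA appears among the titles. The members and the gene lists were chosen with earlier results of these data known.

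Testing used R 4.3.3 and edgeR 4.0.16 (filterByExpr, TMM, quasi-likelihood test with the group as its only term, two-sided, Benjamini-Hochberg threshold of 0.05), DESeq2 1.42.0 and limma 3.58.1. Of 20030 genes 12369 were tested. Standard errors are the log2 fold change over the square root of the F statistic. Depth was 18167773 to 19583282 counts per library; the 95% intervals come from the edgeR fit, and the floor of 3 counts covers counting error only. Named genes are the 9 members, KIF11, AXIN2, NKD1, CYP2E1 and the 3 nearest profiles of CTNNB1 and GLUL. In each list the 2 largest rises and the 2 largest falls among called genes were added (mean of at least 1 CPM). JUP, VCL, CTNNA1, CTNND1, SKP1, CYP1A2, CSNK1E and the cell markers were picked later, knowing their values. Where libraries were left out, a group of 2 remained. The alternatives were other scalings (RLE, upper quartile, library totals), filters, the replicate block, each library left out, DESeq2 and limma on log2(FPKM + 1) and log2(FPKM + 0.1).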

Additional observations from a re-analysis of the deposited data

How the results depend on the processing

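GLUL, SP5, TBX3, LGR5, LEF1 and KIF11 kept direction and call under all 15 alternatives. CTNNB1 was called higher with library totals alone (0.27), limma on log2(FPKM + 1) (0.24) and on log2(FPKM + 0.1) (0.24), and ranged from -0.0293 to 0.157 when single libraries were dropped (called without sh-ctrl library 3, and -0.00243 and -0.0293 without sh-ctrl libraries 1 and 2). TCF7 was -0.0855 and not called with upper-quartile factors, 0.0665 with library totals alone, 0.0127 and 0.0164 with limma at pseudocounts of 1 and 0.1, and from -0.21 to -0.13 when single libraries were dropped. TCF7L2 was called at 0.24 with library totals alone, was -0.00103 without the low-count filter and ranged from -0.0266 to 0.0380 when single libraries were dropped. TCF7L1 ranged from -0.72 to -0.35 in the same way and was called without sh-KIF11 library 1. KAT5 turned to 0.0360 with library totals alone, and NKD1 to 0.10 there and to 0.0312 and 0.0327 with limma at pseudocounts of 1 and 0.1. The causes were not tested.

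With library totals alone 6621 genes were called higher and 2373 lower, against 4254 and 4294, and limma called 2596 and 2597 lower at pseudocounts of 1 and 0.1. In the destruction complex list library totals alone gave 10 higher and 4 lower, and limma 8 and 4 on either scale. Among the coactivators library totals alone gave 8 higher, limma with a pseudocount of 1 gave 7, and upper-quartile factors, library totals and limma on either scale gave 1 lower, with 1 to 3 when each library was left out. Among the corepressors library totals alone gave 6 higher and 1 lower, limma 5 and 1 on either scale, with 1 to 4 higher when each library was left out. Library totals alone and limma gave 3 lower pericentral genes, and 2 were higher with at least 10 counts in every library, a filter that tests fewer genes. For targets in other tissues 3 were lower with upper-quartile factors, library totals and limma. Periportal genes called higher were 1 to 2 with each library left out.

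The replicate numbers are shared only as numbers, since the deviations of same-numbered libraries correlated at 0.03, -0.02 and -0.00. With the replicate block 8607 genes were called against 8548, and no call of the 9 genes changed. Depth limits LEF1 and TCF7L1 most, with 17 to 47 counts per library.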
